A study of Mus musculus with 16 samples.

Results

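Ligands of the epidermal growth factor (EGF) family, their ERBB receptors and genes that the ERK kinases induce to restrain their own cascade were followed in mouse thyroid glands by RNA-Seq. The 10 genes were taken by symbol from the gene count table: the ligands Areg, Ereg, Hbegf and Tgfa, the receptors Egfr, Erbb2 and Erbb3, and the feedback genes Dusp6, Spry2 and Spry4. They are 10 of the 25611 entries in the table, which hold 24623 distinct symbols, and all 10 were among the 16630 genes with enough counts to be tested. Thyroid glands came from 16 female C57BL/6 mice, 4 in each of 4 groups, whose age is given as 1 month in the labels and as 4 weeks in the methods. WT(ND) and WT(LID) mice were wild type, and both Glis3-Pax8Cre groups, fed ND or LID, carried the floxed allele Glis3<tm2Amj> with the Cre knock-in Pax8<tm1.1(cre)Mbu>. ND is the normal NIH-31 diet, and LID is a low-iodine diet (TD.95125) fed for 6 days, which deprives the gland of the iodine it needs for thyroid hormone and is known to raise thyrotropin (TSH). Pax8 is active in thyroid follicular cells and also in the kidney and inner ear, so the deletion within Glis3 is placed in follicular cells within the gland, and the WT mice are not described as carrying Cre. Cre and loss of Glis3 therefore cannot be told apart in these groups.

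The EGF family is made as membrane-bound precursors that ADAM proteases release from the cell surface. Amphiregulin (Areg), epiregulin (Ereg), heparin-binding EGF (Hbegf) and TGF-alpha (Tgfa) bind EGFR, which pairs with itself or with ERBB2, a receptor without a known ligand, or ERBB3, a receptor with a weak kinase that binds neuregulins. Active receptors signal through RAS, RAF and MEK to ERK, and ERK in turn induces DUSP6, a phosphatase that inactivates ERK, and the Sprouty proteins SPRY2 and SPRY4, which block the path from receptors to RAF. EGF is a long-known growth factor for thyroid follicular cells in culture.

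Areg, Ereg, Btc and Epgn are EGF-family ligand genes that lie side by side in the mouse genome. In mm10, on chromosome 5, Epgn spans 91027517 to 91035212 on the forward strand, Ereg 91074617 to 91093649 on the forward strand, Areg 91139599 to 91148432 on the forward strand and Btc 91357261 to 91402994 on the reverse strand. The stretch from Epgn to Btc is 375 kb long and holds 5 entries of the table, the fifth being the predicted gene Gm19619. Ereg ends 45.9 kb before Areg starts. Other members lie elsewhere, Tgfa on chromosome 6 (86195227 to 86275743), Egfr (16752203 to 16913907) and Erbb2 (98412484 to 98437716) on chromosome 11, Erbb3 (128569368 to 128589501) and Dusp6 (99263231 to 99267489) on chromosome 10 and Spry2 on chromosome 14 (105891947 to 105896819).

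The promoters of 3 ligands are shown because Areg and Btc rose on the low-iodine diet and Tgfa did not pass that test, as described below. The promoters are from RefSeq in GRCm38.p6, the assembly of mm10, and run from 250 bases before to 50 bases after the annotated start. They were used for 6 of the 10 members; those of Ereg, Hbegf, Erbb3 and Spry4 were not analysed here. The Areg promoter (chr5:91139349-91139648, forward strand) and the Btc promoter (chr5:91402945-91403244, reverse strand) are printed with the cAMP response element TGACGTCA and its shorter form TGACG, on either strand, in capitals. The Tgfa promoter (chr6:86194972-86195271, forward strand) is printed with the GC box GGGCGG, on either strand, in capitals.
Areg: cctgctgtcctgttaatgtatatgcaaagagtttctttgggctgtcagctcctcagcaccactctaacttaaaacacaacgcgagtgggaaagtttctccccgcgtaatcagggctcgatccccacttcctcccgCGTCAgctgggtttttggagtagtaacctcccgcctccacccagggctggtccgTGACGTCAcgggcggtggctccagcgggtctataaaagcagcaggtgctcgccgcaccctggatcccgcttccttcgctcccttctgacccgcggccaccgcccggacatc
Btc: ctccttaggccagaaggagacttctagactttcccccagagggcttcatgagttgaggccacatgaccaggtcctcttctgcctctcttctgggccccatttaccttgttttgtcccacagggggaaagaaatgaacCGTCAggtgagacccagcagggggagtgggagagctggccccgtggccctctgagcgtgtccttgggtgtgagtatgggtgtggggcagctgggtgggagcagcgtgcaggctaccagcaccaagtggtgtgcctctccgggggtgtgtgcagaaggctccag
Tgfa: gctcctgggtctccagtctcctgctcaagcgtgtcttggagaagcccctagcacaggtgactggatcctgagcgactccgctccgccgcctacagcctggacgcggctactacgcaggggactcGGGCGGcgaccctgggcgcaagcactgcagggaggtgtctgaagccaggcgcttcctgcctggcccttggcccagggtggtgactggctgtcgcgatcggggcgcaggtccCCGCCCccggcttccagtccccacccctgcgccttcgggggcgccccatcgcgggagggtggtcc
Areg holds the complete element TGACGTCA, which reads the same on both strands, with its first base 61 bases before the start, and 1 further TGACG on the reverse strand 115 bases before it. It also holds the TATA motif TATAAA 31 bases before the start. TGACGTCA was found in 1.79% of all 32851 promoters of this length, TGACG, which overlaps every TGACGTCA, in 20.8%, TATAAA in 13.6% and GGGCGG in 35.7%. Among the 6 promoters of members, the complete element was found in Areg alone, and Erbb2 held TGACG. Btc holds 1 TGACG. Tgfa and Areg each hold 2 GC boxes, and Egfr holds 1. The ETS motif CCGGAA was found in Egfr and Spry2, against 14.9% of all promoters, while the AP-1 motif TGANTCA (7.81% of all promoters) and the GLIS motif TGGGGGGT (1.53%) matched none of the 6. These are matches of letters in 1 window and not measured sites.

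Between 13892352 and 461077969 read pairs per library were counted. Levels are given as CPM, the counts of a gene scaled to a common library size. Tg, the thyroglobulin gene, took 7.87% to 29.3% of each library, so the defining product of follicular cells was abundant in all 16 libraries. Its share split by genotype, at 19.6% to 29.3% in WT mice and 7.87% to 18.7% in Glis3-Pax8Cre mice. Markers of other cells were present: the summed CPM of 8 thymocyte markers was over 200 in 3 libraries (WT(LID) replicate 3, Glis3-Pax8Cre(ND) replicate 4 and Glis3-Pax8Cre(LID) replicate 4; 222 to 2632 CPM) and at most 156 in the other 13. Other markers moved with diet. The 3 parathyroid markers fell on LID in both genotypes, from sums of 3477 to 6005 CPM to 858 to 1676 CPM in WT mice and from 3289 to 5180 CPM to 225 to 2099 CPM in Glis3-Pax8Cre mice. Of 4 C-cell markers, 3 fell on LID in WT mice (sums of 7792 to 10167 CPM on ND and 2629 to 3993 CPM on LID) and 1 in Glis3-Pax8Cre mice (3565 to 6161 CPM and 1448 to 3482 CPM). Of 4 adipocyte markers, 3 fell on LID in WT mice (321 to 831 CPM and 135 to 213 CPM) and 1 rose in Glis3-Pax8Cre mice (156 to 349 CPM and 145 to 342 CPM). Skeletal muscle markers summed to between 0.775 and 1212 CPM over the 16 libraries. Some markers also differed with genotype on ND. All 4 macrophage markers were higher in Glis3-Pax8Cre mice, against 10.3% of all genes. Of the 4 C-cell, 4 adipocyte and 4 fibroblast markers, 2 in each list were lower and 0 higher, against 9.25% of all genes lower. Of the 6 follicular markers 2 were higher and 1 lower, and of the 5 endothelial markers 2 were higher and 0 lower. The part of these markers in the members' changes with diet or genotype was not tested. Glis3, the targeted gene, was counted at 45.2 to 85.8 CPM among WT(ND) mice, 85.8 to 105 CPM among Glis3-Pax8Cre(ND) mice, 125 to 174 CPM among WT(LID) mice and 120 to 204 CPM among Glis3-Pax8Cre(LID) mice. Counts over the whole gene were thus not lower in the deleted mice, and they do not check the removal of single exons. Pax8, the locus of the Cre knock-in, was at 996 CPM in WT(ND) replicate 3. The other WT(ND) mice had 374 to 397 CPM, WT(LID) mice 280 to 339 CPM and Glis3-Pax8Cre mice 643 to 989 CPM. That replicate is WT by its label, and its genotype was not tested here. Without it, the Areg call on ND and the Egfr call in WT mice were lost, as given below. In bulk tissue, fewer cells of a type and less RNA per cell cannot be told apart.

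Feeding LID to WT mice raised 4 members and lowered 1. Areg rose 11.4-fold, Ereg 10.4-fold, Spry4 2.56-fold and Egfr 1.47-fold, while Erbb3 fell by 0.57 on the log2 scale. Of all tested genes, 20.9% rose and 20.8% fell in this comparison. In Glis3-Pax8Cre mice LID raised Areg, Ereg and Egfr and lowered no member, against 13.1% of genes that rose and 12.3% that fell. Between genotypes, Hbegf, Tgfa, Erbb2 and Spry2 were lower in Glis3-Pax8Cre mice on both diets, and Areg was higher on ND. These were 1 member higher and 4 lower on ND, against 10.3% and 9.25% of all genes, and 0 higher and 4 lower on LID, against 14.9% and 15.4%. No member passed the test of a different response to diet in the 2 genotypes, where 4.43% of genes had a higher and 7.41% a lower response in Glis3-Pax8Cre mice; in that test 2 members, Spry4 and Erbb3, had an unadjusted p under 0.05 in edgeR, and DESeq2 called Spry4. The median log2 fold change of the 10 members was 0.24 in WT mice on LID, beside -0.028 over all genes, and 0.12 in Glis3-Pax8Cre mice, beside -0.033. Between genotypes it was -0.046 on ND (all genes 0.021) and -0.24 on LID (all genes 0.012). A gene is called where its p in the quasi-likelihood test of edgeR, adjusted by Benjamini and Hochberg's method over all 16630 genes, is under 0.05.

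**Figure D1:**
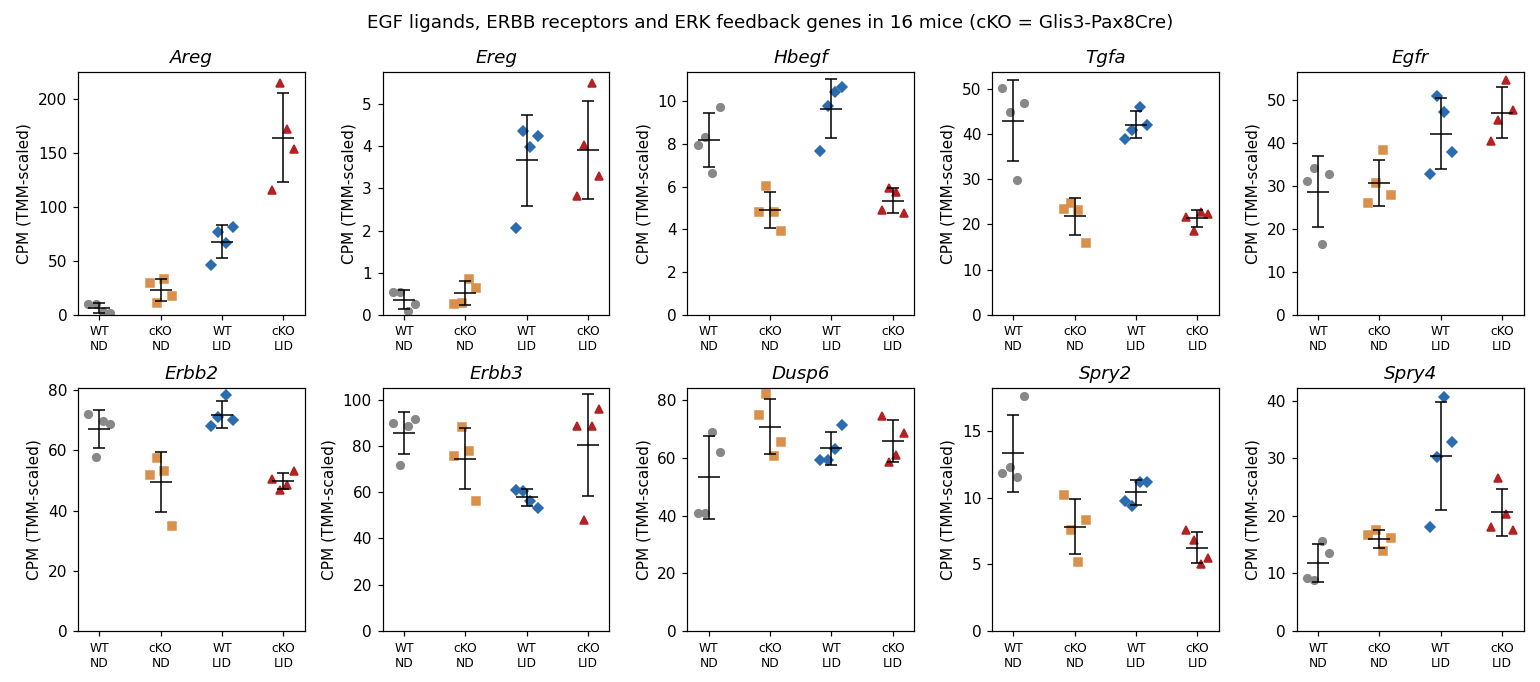
Levels (CPM on TMM-scaled library sizes, linear axes from 0) of the 10 genes in each of the 16 mice; each symbol is 1 mouse, horizontal bars are group means and error bars the SD of 4 mice, and cKO stands for Glis3-Pax8Cre. Areg reached 46.4 to 81.5 CPM among WT(LID) mice and 115 to 214 CPM among Glis3-Pax8Cre(LID) mice, above every ND mouse, while Tgfa split by genotype, with every Glis3-Pax8Cre mouse at 24.7 CPM or less and every WT mouse at 29.9 CPM or more.

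Areg encodes amphiregulin, a ligand with a heparin-binding stretch that activates EGFR. Its level in the 4 WT(ND) mice was 10.1, 10.3, 2.13 and 1.63 CPM. Glis3-Pax8Cre(ND) mice had 29.2, 11.2, 33.5 and 17.0 CPM. The groups did not overlap, but the lowest Glis3-Pax8Cre(ND) mouse was close to the highest WT(ND) mouse. On LID the WT mice had 46.4, 76.7, 66.8 and 81.5 CPM, and the Glis3-Pax8Cre mice had 115, 214, 172 and 153 CPM. All 4 groups were thus separate and rose from WT(ND) through Glis3-Pax8Cre(ND) and WT(LID) to Glis3-Pax8Cre(LID), with means of 6.04 ± 4.81, 22.7 ± 10.3, 67.8 ± 15.5 and 164 ± 41.2 CPM (SD, n = 4). LID raised Areg by a log2 fold change of 3.51 (SE 0.59, adjusted p = 0.000340) in WT mice and 2.86 (SE 0.57, adjusted p = 0.00277) in Glis3-Pax8Cre mice. The difference between these responses, -0.65 (95% interval -2.27 to 0.98), did not pass the test.

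On ND, Areg was 3.78-fold higher in Glis3-Pax8Cre than in WT mice (log2 fold change 1.92, SE 0.56, adjusted p = 0.0286). That call was lost without WT(ND) replicate 3 (adjusted p = 0.0536) or 4 (0.0549) or Glis3-Pax8Cre(ND) replicate 1 (0.0533) or 3 (0.0751), and it was also lost when the fit held only the 8 ND mice (0.119). On LID the difference was 2.41-fold (log2 fold change 1.27, SE 0.53), with an adjusted p of 0.0895 in the fit of all 16 mice. A fit of the 8 LID mice alone gave nearly the same log2 fold change, 1.27 with SE 0.21, and an adjusted p of 0.00162. Leaving out WT(ND) replicate 4 also gave a call (0.0465). Over the alternatives the adjusted p of that difference ranged from 0.000285 to 0.201. On the log2 scale, the spread of Areg was wide among ND mice and narrower among LID mice. The fit of 16 mice shares this spread between the diets.

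Ereg encodes epiregulin, a ligand of EGFR and ERBB4. It was rare on ND, at 0.533, 0.543, 0.0848 and 0.263 CPM in WT mice and 0.251, 0.290, 0.847 and 0.642 CPM in Glis3-Pax8Cre mice. The 2 genotypes overlapped, and the lowest of these libraries held 4 counts of the gene. Fed LID, WT mice had 2.06, 4.36, 3.99 and 4.24 CPM, and Glis3-Pax8Cre mice had 2.82, 4.03, 5.49 and 3.30 CPM. Every LID mouse was above every ND mouse, and the genotypes overlapped again. Its fitted log2 fold change on LID was 3.38 (SE 0.50, adjusted p = 7.97e-05) in WT and 2.91 (SE 0.49, adjusted p = 0.000687) in Glis3-Pax8Cre mice. Unlike for Areg, the genotype difference did not pass on ND (0.57, 95% interval -0.47 to 1.61), and on LID it was 0.096 (95% interval -0.85 to 1.04), whose sign turned in some fits without 1 mouse. Whether Areg and Ereg differ from each other in the genotype effect was not tested.

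Areg and Ereg shared the rise on LID with Btc, the other tested ligand gene of their chromosome 5 stretch. Btc, which encodes betacellulin, a ligand of EGFR and ERBB4, had means of 13.2 ± 2.62 CPM among WT(ND) mice, 14.7 ± 3.34 among Glis3-Pax8Cre(ND) mice, 32.2 ± 5.12 among WT(LID) mice and 45.4 ± 2.20 among Glis3-Pax8Cre(LID) mice. The lowest LID mouse, at 27.2 CPM, was above the highest ND mouse, at 19.5 CPM. Its log2 fold change on LID was 1.29 (SE 0.16, adjusted p = 1.76e-05) in WT and 1.63 (SE 0.16, adjusted p = 9.72e-06) in Glis3-Pax8Cre mice. Between genotypes Btc was higher in Glis3-Pax8Cre(LID) than among WT(LID) mice by 0.50 (SE 0.16, adjusted p = 0.0275). Gm19619, the predicted gene between Areg and Btc, was counted 4 to 61 times per library and rose by 2.34 (SE 0.40, adjusted p = 0.000295) in WT and 1.61 (SE 0.40, adjusted p = 0.00927) in Glis3-Pax8Cre mice. Epgn, the epigen gene, had at most 10 counts in a library and 0 in 2 libraries, so it was not tested. The 4 tested genes of the stretch were thus all called higher on LID in both genotypes, against 20.9% of all genes in WT and 13.1% in Glis3-Pax8Cre mice. Areg and Ereg are 2 of these 4, and their neighbours were looked up after the values of Areg and Ereg were known.

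Hbegf and Tgfa, the other ligands among the members, were lower in Glis3-Pax8Cre mice on both diets, and for neither did the comparison of diets pass the test. Hbegf encodes heparin-binding EGF-like growth factor. It was at 7.96, 8.33, 6.65 and 9.72 CPM among WT(ND) mice, 4.83, 6.01, 4.80 and 3.94 CPM among Glis3-Pax8Cre(ND) mice, 7.66, 9.79, 10.4 and 10.7 CPM among WT(LID) mice and 4.89, 5.95, 5.74 and 4.78 CPM among Glis3-Pax8Cre(LID) mice. On each diet the Glis3-Pax8Cre mice were all below the WT mice. Hbegf was lower by a log2 fold change of -0.74 (SE 0.15, adjusted p = 0.00400) on ND and -0.85 (SE 0.15, adjusted p = 0.000604) on LID. The ND call was lost in 1 of 26 alternatives, a fit of the 8 ND mice alone with a replicate block (adjusted p = 0.0800). With LID against ND it differed by 0.24 (95% interval -0.086 to 0.56) in WT and 0.12 (95% interval -0.20 to 0.45) in Glis3-Pax8Cre mice, and neither passed the test.

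Tgfa, the gene of transforming growth factor alpha, showed the largest genotype difference among the called members on LID, and it was 1.98-fold lower on ND and 1.97-fold lower on LID. WT(ND) mice had 50.2, 44.9, 29.9 and 46.8 CPM, and Glis3-Pax8Cre(ND) mice had 23.3, 24.7, 23.2 and 15.8 CPM. WT(LID) mice had 38.9, 40.9, 46.0 and 42.1 CPM, and Glis3-Pax8Cre(LID) mice had 21.7, 18.4, 22.7 and 22.3 CPM. No Glis3-Pax8Cre mouse reached the lowest WT mouse. The log2 fold change was -0.98 on ND (SE 0.15, adjusted p = 0.000627) and also -0.98 on LID (SE 0.15, adjusted p = 0.000195). The difference between the 2 diets in this genotype effect was 0.0039 (95% interval -0.46 to 0.46). LID itself changed Tgfa by -0.033 (95% interval -0.36 to 0.29) in WT and -0.029 (95% interval -0.36 to 0.30) in Glis3-Pax8Cre mice, with signs that turned in several fits.

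Among the receptors, Egfr rose on LID in both genotypes, close to the threshold. Egfr levels were 31.0, 34.1, 16.4 and 32.8 CPM among WT(ND) mice and 32.7, 50.9, 47.1 and 37.8 CPM among WT(LID) mice, so the WT groups overlapped. They were 26.0, 30.6, 38.2 and 27.9 CPM among Glis3-Pax8Cre(ND) mice and 40.4, 45.2, 54.5 and 47.6 CPM among Glis3-Pax8Cre(LID) mice, which did not overlap. Its fitted log2 fold change was 0.56 (SE 0.20, adjusted p = 0.0387) in WT and 0.61 (SE 0.20, adjusted p = 0.0397) in Glis3-Pax8Cre mice. Neither call was steady. The WT call was lost without WT(ND) replicate 3 (adjusted p = 0.0721) or WT(LID) replicate 2 (0.111) or 3 (0.0889), and the Glis3-Pax8Cre call in 8 of the 16 fits that left out 1 mouse, with adjusted p up to 0.104; those 8 were without WT(ND) replicate 1, WT(LID) replicate 3, Glis3-Pax8Cre(ND) replicate 1, 2 or 4 or Glis3-Pax8Cre(LID) replicate 2, 3 or 4. With the replicate block the adjusted p was 0.0611 in WT and 0.0534 in Glis3-Pax8Cre mice, and without the 3 libraries rich in thymocyte markers it was 0.107 and 0.137, with log2 fold changes of 0.50 and 0.56. Scaling by library size alone also ended both calls (0.0851 and 0.0580). Genotype differences of Egfr were 0.10 on ND (95% interval -0.33 to 0.54) and 0.16 on LID (95% interval -0.28 to 0.59).

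Erbb2 encodes the receptor that serves as the preferred partner of the others. It was at 72.1, 57.7, 69.9 and 68.8 CPM among WT(ND) mice, 51.8, 57.5, 53.3 and 34.9 CPM among Glis3-Pax8Cre(ND) mice, 68.0, 71.1, 78.5 and 70.0 CPM among WT(LID) mice and 50.4, 47.0, 48.4 and 53.2 CPM among Glis3-Pax8Cre(LID) mice. Each Glis3-Pax8Cre group lay below the WT group of the same diet, by a wide margin on LID and barely on ND. The log2 fold change was -0.53 on LID (SE 0.12, adjusted p = 0.00382) and -0.44 on ND (SE 0.12, adjusted p = 0.0198). The ND call was lost without WT(ND) replicate 1 (adjusted p = 0.0673) or 4 (0.0578) and in the fit of the 8 ND mice alone (0.107). LID against ND gave 0.099 (95% interval -0.16 to 0.36) in WT, a sign that library size alone turned, and 0.011 (95% interval -0.25 to 0.27) in Glis3-Pax8Cre mice.

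Erbb3, the neuregulin receptor, fell on LID in WT mice. Its levels were 89.8, 71.9, 88.5 and 91.6 CPM among WT(ND) mice and 60.9, 60.5, 56.4 and 53.2 CPM among WT(LID) mice, with no overlap. Its fitted log2 fold change was -0.57 (SE 0.18, adjusted p = 0.0187), and the adjusted p was 0.0526 without WT(LID) replicate 4. Glis3-Pax8Cre mice had 75.6, 88.3, 77.8 and 56.3 CPM on ND and 88.8, 47.9, 88.6 and 96.0 CPM on LID. In these mice the difference with diet was 0.11 (95% interval -0.27 to 0.49) and its sign turned in some fits. Replicate 2 of Glis3-Pax8Cre(LID), at 47.9 CPM, lay apart from the other 3 mice of its group. With it, Erbb3 differed by 0.48 between Glis3-Pax8Cre(LID) and WT(LID) (adjusted p = 0.0553); without it, by 0.66 (adjusted p = 0.00128). It passed too with replicate 4 of Glis3-Pax8Cre(ND) left out (0.0366), by DESeq2 (0.0367) and with library size alone (0.00837). The interaction of genotype and diet was 0.67 (SE 0.25, adjusted p = 0.0975) with this mouse and 0.86 (adjusted p = 0.00507) without it.

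**Figure D2:**
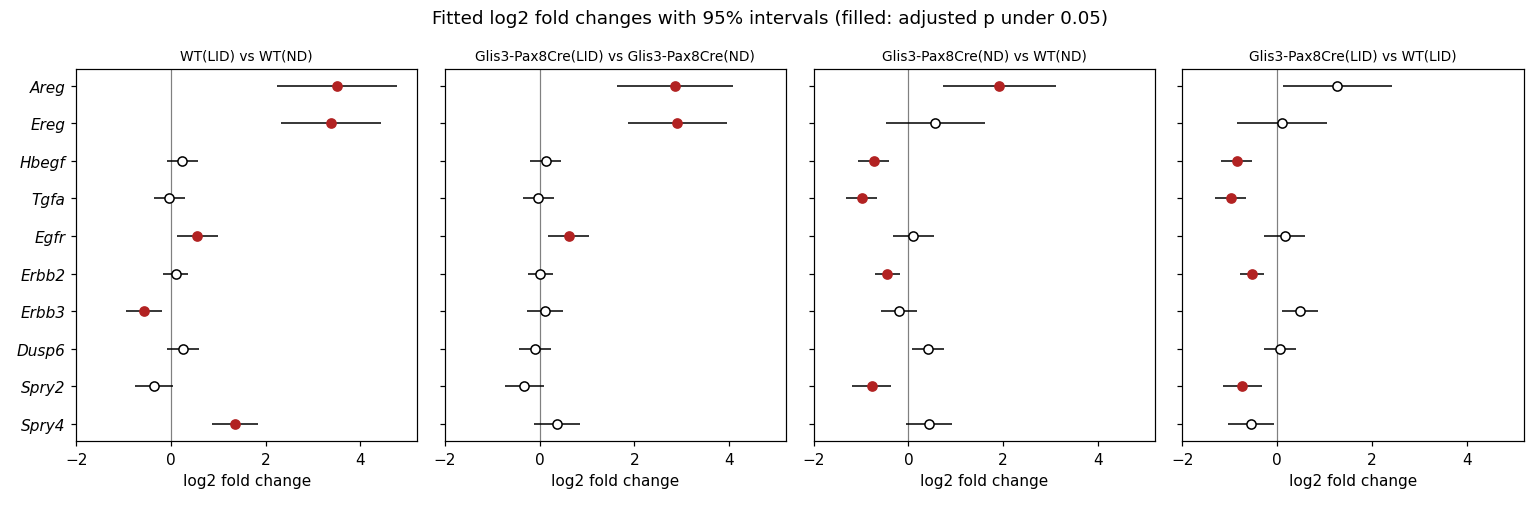
Fitted log2 fold changes (points) with 95% intervals (lines) of the 10 genes in the 4 comparisons of 4 mice with 4, on a common axis; filled points passed an adjusted p of 0.05 in edgeR's quasi-likelihood test. The intervals of Areg and Ereg on LID lie far to the right of 0 in both genotypes (from 2.25 and 2.32 upwards in WT), and those of Hbegf, Tgfa, Erbb2 and Spry2 lie left of 0 in both comparisons of genotypes.

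The feedback genes did not move together. Dusp6, which encodes the ERK-specific phosphatase, was at 41.0, 41.0, 68.9 and 62.2 CPM among WT(ND) mice, 74.8, 82.1, 60.8 and 65.4 CPM among Glis3-Pax8Cre(ND) mice, 59.3, 59.3, 63.3 and 71.4 CPM among WT(LID) mice and 74.7, 58.8, 61.0 and 68.6 CPM among Glis3-Pax8Cre(LID) mice. The groups overlapped in all 4 comparisons. Its log2 fold change on LID was 0.25 (95% interval -0.087 to 0.58) in WT and -0.11 (95% interval -0.44 to 0.23) in Glis3-Pax8Cre mice. On ND it was 0.41 higher in Glis3-Pax8Cre than in WT mice (adjusted p = 0.0809), a difference that passed without WT(ND) replicate 3 (0.57, adjusted p = 0.0134), in DESeq2 (0.0499) and with library size alone (0.0327). Without that mouse LID against ND in WT mice passed too (0.40, adjusted p = 0.0447).

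Spry2, a Sprouty gene, was lower in Glis3-Pax8Cre mice on both diets. It was at 11.9, 12.3, 11.5 and 17.6 CPM among WT(ND) mice, 10.2, 7.57, 5.21 and 8.35 CPM among Glis3-Pax8Cre(ND) mice, 9.80, 9.43, 11.2 and 11.2 CPM among WT(LID) mice and 7.55, 6.85, 5.05 and 5.50 CPM among Glis3-Pax8Cre(LID) mice. The genotypes were separate on each diet. The log2 fold change was -0.77 on ND (SE 0.19, adjusted p = 0.0115) and -0.74 on LID (SE 0.19, adjusted p = 0.00863). In the fit of the 8 ND mice alone the ND difference had an adjusted p of 0.0654, and without the 3 libraries rich in thymocyte markers the LID difference had one of 0.0543. The WT groups on the 2 diets did not overlap either, with a log2 fold change on LID of -0.36 (95% interval -0.76 to 0.047), which did not pass the test (adjusted p = 0.147).

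Spry4 rose on LID in WT mice. Its levels were 9.21, 8.93, 15.7 and 13.6 CPM among WT(ND) mice and 18.02, 30.2, 40.6 and 32.8 CPM among WT(LID) mice, with no overlap. Its fitted log2 fold change was 1.36 (SE 0.23, adjusted p = 0.000268). Glis3-Pax8Cre mice had 16.6, 17.5, 13.8 and 16.1 CPM on ND and 17.99, 26.6, 20.3 and 17.6 CPM on LID. These groups were separate by a small margin, and the log2 fold change of 0.36 (95% interval -0.12 to 0.85) did not pass. The interaction was -0.99 (95% interval -1.68 to -0.31, adjusted p = 0.0577). It passed when replicate 3 of WT(ND) (adjusted p = 0.0248), replicate 1 of WT(LID) (0.0112) or replicate 2 of Glis3-Pax8Cre(LID) (0.0363) was left out, with at least 10 counts in every mouse (0.0457) and in DESeq2 (0.0185); over all alternatives its adjusted p ranged from 0.0112 to 0.211. Between genotypes on LID the difference of -0.56 missed the threshold (adjusted p = 0.0751), was called by DESeq2 (0.0491) and passed when either replicate 1 of WT(LID) (0.0111) or replicate 2 of Glis3-Pax8Cre(LID) (0.0408) was left out.

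Spry4 is also expressed by endothelial cells, whose markers rose with it on LID in WT mice. The summed CPM of Pecam1, Cdh5, Kdr, Tie1 and Emcn was 488 to 620 among WT(ND) mice, 634 to 889 among Glis3-Pax8Cre(ND) mice, 1316 to 1488 among WT(LID) mice and 591 to 754 among Glis3-Pax8Cre(LID) mice. In WT mice all 5 markers rose on LID, by a median log2 fold change of 1.29, and in Glis3-Pax8Cre mice 1 fell and the median was -0.13. All 5 passed the interaction test in the lower direction, with a median of -1.52, and 4 of the 5 were lower in Glis3-Pax8Cre(LID) than among WT(LID) mice. The 3 pericyte markers Pdgfrb, Rgs5 and Cspg4 likewise all rose in WT mice on LID, and 1 of them rose in Glis3-Pax8Cre mice. Of these 3, 2 were lower in Glis3-Pax8Cre(LID) than among WT(LID) mice, and 1 passed the interaction test in the lower direction. The part of the endothelial and pericyte markers in the Spry4 result was not tested.

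**Figure D3:**
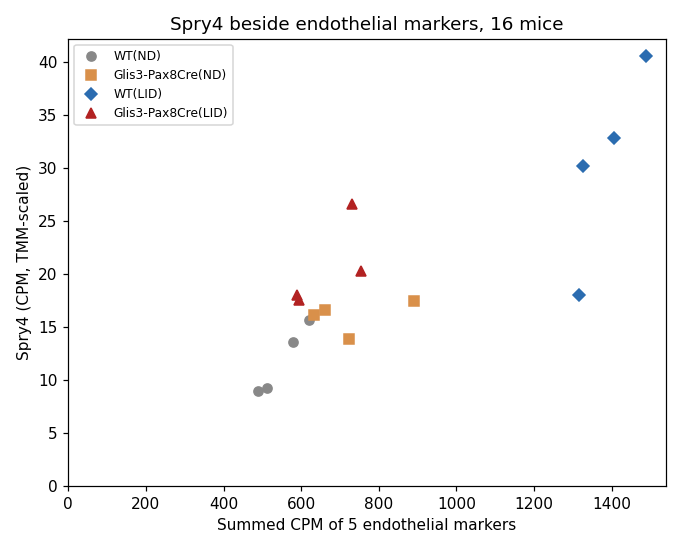
Spry4 (CPM on TMM-scaled library sizes, linear axis from 0) against the summed CPM of the 5 endothelial markers Pecam1, Cdh5, Kdr, Tie1 and Emcn; each symbol is 1 of the 16 mice. The 4 WT(LID) mice stand apart at 1316 to 1488 CPM of markers with 18.02 to 40.6 CPM of Spry4, and the other 12 mice lie at 889 CPM of markers or less.

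Levels of different members can be set side by side per length, here as CPM per kilobase of the gene's merged exons in the GENCODE M21 basic annotation. In WT(ND) the order from the top began with Dusp6 (19.1 ± 5.16 CPM per kb), Erbb3 (14.2 ± 1.52), Erbb2 (13.4 ± 1.28) and Tgfa (9.48 ± 1.98), and Areg was in place 6 at 4.97 ± 3.96 CPM per kb. The spreads of Erbb3 and Erbb2 overlapped there. In Glis3-Pax8Cre(ND) Areg was in place 2, at 18.7 ± 8.52 CPM per kb, behind Dusp6 at 25.3 ± 3.40, with spreads that overlapped. On LID it led the 10 genes in both genotypes, at 55.8 ± 12.8 CPM per kb in WT and 135 ± 33.9 in Glis3-Pax8Cre mice, ahead of Dusp6 at 22.6 ± 2.03 and 23.5 ± 2.61. Tgfa, at 9.27 ± 0.661 CPM per kb in WT(LID) and 4.71 ± 0.433 among Glis3-Pax8Cre(LID) mice, was well below Areg. Ereg was the lowest member in all 4 groups, at 0.0862 to 0.948 CPM per kb. Egfr was between 2.61 and 4.29 CPM per kb, below Erbb2 and Erbb3 in every group.

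Around their group means the members did not vary as a block. Over the 45 pairs of members the Pearson correlation of deviations of log2 CPM from the group mean, across 16 mice, had a median of 0.057 and ran from -0.81 to 0.80, with 26 pairs positive; these are descriptions, since the genes of a mouse share a library and its depth. The highest were Ereg with Egfr (r = 0.80, Spearman's rho 0.73) and Areg with Ereg (r = 0.76, rho 0.73), and the lowest were Areg with Dusp6 (r = -0.81, rho -0.77) and Ereg with Dusp6 (r = -0.81, rho also -0.81). A share of this came from the WT(ND) mice, in which replicates 1 and 2 had more Areg, less Dusp6 and less Spry4 than replicates 3 and 4. Among the other 12 mice r was 0.69 for Ereg with Egfr, 0.66 for Areg with Ereg, -0.48 for Areg with Dusp6 and -0.60 for Ereg with Dusp6.

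**Figure D4:**
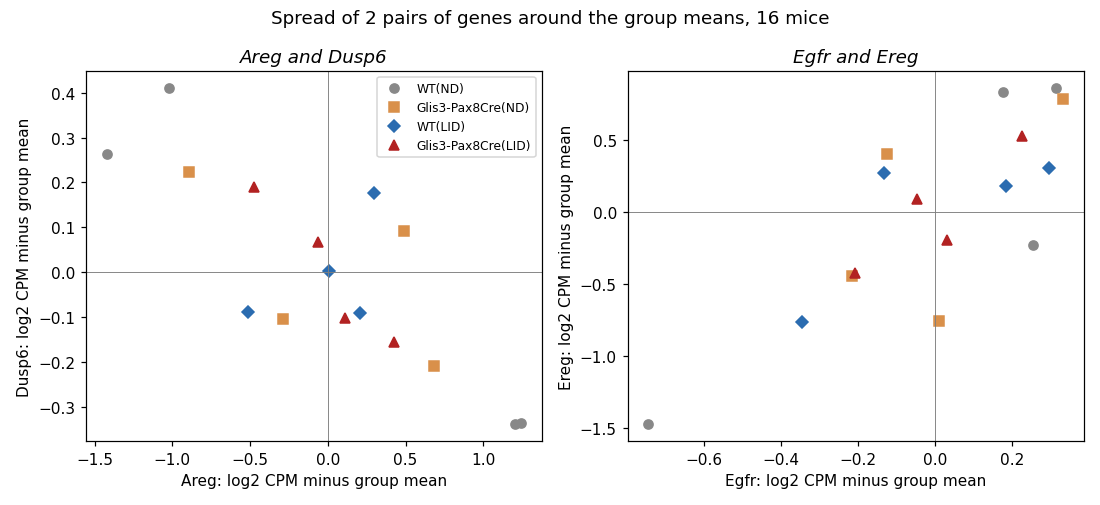
Deviation of log2 CPM from the group mean in each of 16 mice, for Areg (x) and Dusp6 (y) on the left and for Egfr (x) and Ereg (y) on the right; symbols mark the 4 groups. The points fall from upper left to lower right for Areg and Dusp6 (r = -0.81), with the 4 WT(ND) mice at the ends, and rise for Egfr and Ereg (r = 0.80).

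Across all 16 mice and 13996 genes with a mean of at least 1 CPM, the genes most like Areg in log2 CPM were Trem1 (r = 0.98), an innate immune receptor gene, Bdkrb1 (r = 0.98), the bradykinin B1 receptor gene, and Dpysl5 (r = 0.97). Trem1 had means of 0.343 CPM among WT(ND) mice, 1.94 among Glis3-Pax8Cre(ND) mice, 7.15 among WT(LID) mice and 11.0 among Glis3-Pax8Cre(LID) mice, the group order of Areg, and Dpysl5 had 15.7, 69.6, 159 and 270.2 CPM in that order. Within groups the correlations with Areg were 0.95 for Trem1, 0.84 for Bdkrb1 and 0.86 for Dpysl5. These 3 genes were picked for their correlation with Areg in the same mice. The deviations of Areg were largest in the WT(ND) mice, and no correlation without those mice was computed for these genes. The genes most like Egfr were C1s2 (r = 0.92), Nsrp1 (0.89) and Synj2 (0.88). Those most like Dusp6 were Kctd12b (r = 0.85), Agtr1a, an angiotensin receptor gene (0.84), and Tmc5 (0.84).

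Of 53 other genes of the pathway, 50 were tested, and they moved in both directions. In WT mice on LID 12 rose and 8 fell, and in Glis3-Pax8Cre mice 7 rose and 3 fell. In Glis3-Pax8Cre against WT mice 4 were higher and 8 lower on ND, and 5 higher and 6 lower on LID. The interaction called 3 in the higher and 3 in the lower direction. Against the shares of all genes given above, 20 of 50 called in WT mice on LID is close to the background. The median log2 fold change of the 50 was 0.10 in WT and 0.048 in Glis3-Pax8Cre mice on LID, and -0.075 on ND and -0.072 on LID between genotypes.

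Erbb4, the remaining ERBB receptor and a receptor for neuregulins, Btc and Ereg, responded differently in the 2 genotypes. It was at 22.5, 19.1, 38.8 and 19.9 CPM among WT(ND) mice, 36.9, 38.9, 38.2 and 29.5 CPM among Glis3-Pax8Cre(ND) mice, 6.74, 9.38, 9.35 and 7.06 CPM among WT(LID) mice and 28.0, 18.6, 36.4 and 29.1 CPM among Glis3-Pax8Cre(LID) mice. The WT(LID) mice were below all 12 others. LID lowered Erbb4 in WT mice by a log2 fold change of -1.63 (SE 0.23, adjusted p = 6.79e-05), and in Glis3-Pax8Cre mice the difference of -0.36 was not called. Erbb4 was higher in Glis3-Pax8Cre(LID) than among WT(LID) mice by 1.79 (SE 0.24, adjusted p = 4.55e-05), and the interaction was 1.27 (SE 0.32, adjusted p = 0.0187). Of the other 7 ligands in the list, 5 were tested: besides Btc, 3 others passed on LID in at least 1 genotype, and they are named after their values were seen. Nrg4 fell by -1.22 (adjusted p = 0.00653) in WT mice, and Nrg2 by -1.57 (adjusted p = 0.0419) in Glis3-Pax8Cre mice, whose groups overlapped. In WT mice 3 of 4 adipocyte markers fell on LID too, and their part in the Nrg4 result was not tested. Egf itself fell on LID by -0.85 (adjusted p = 0.0117) in WT and by -0.998 (adjusted p = 0.00890) in Glis3-Pax8Cre mice, from means of 5.96 and 4.47 CPM to 3.32 and 2.21 CPM.

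The counts of the smaller lists are read against all genes, of which 20.9% rose and 20.8% fell on LID in WT mice and 13.1% rose and 12.3% fell in Glis3-Pax8Cre mice. Of 4 genes for ligand shedding, 2 rose on LID in each genotype and 0 fell. They were Adam10 and Adam17 in WT and Adam10 and Rhbdf2 in Glis3-Pax8Cre mice, named after their values were seen. Adam10 rose less in Glis3-Pax8Cre mice, with an interaction of -0.48 (SE 0.12, adjusted p = 0.0148). Of 6 inhibitors of the receptors, 1 rose in WT mice on LID and 0 passed in Glis3-Pax8Cre mice. Among 16 adaptors and kinases of the ERK cascade, 3 rose and 1 fell in WT mice and 1 rose and 1 fell in Glis3-Pax8Cre mice, no larger a share than over all genes. Ksr1, which encodes a scaffold of the cascade, rose on LID in both, by 1.46 (SE 0.19, adjusted p = 2.41e-05) and 1.27 (SE 0.19, adjusted p = 0.000246), from means of 8.98 and 15.7 CPM to 24.7 and 37.7 CPM. Of the 9 other feedback genes, 2 rose and 2 fell in WT mice on LID and 0 passed in Glis3-Pax8Cre mice; Dusp4, a phosphatase gene of the DUSP family, fell in WT mice by -1.46 (SE 0.39, adjusted p = 0.00795).

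Of 10 listed genes that ERK is known to induce, 9 were tested. On LID 3 rose and 2 fell in WT mice, against 20.9% and 20.8% of all genes, and 3 rose and 0 fell in Glis3-Pax8Cre mice, against 13.1% and 12.3%. Ccnd1, the cyclin D1 gene, was at 90.0 to 120 CPM among WT(ND) mice, 84.6 to 106 CPM among Glis3-Pax8Cre(ND) mice, 269 to 310.1 CPM among WT(LID) mice and 112 to 149 CPM among Glis3-Pax8Cre(LID) mice. It rose on LID by 1.52 (SE 0.11, adjusted p = 9.95e-08) in WT mice and by 0.47 (adjusted p = 0.00598) in Glis3-Pax8Cre mice, an interaction of -1.05 (SE 0.16, adjusted p = 0.000433). Etv4, an ETS factor gene, rose in WT mice by 1.33 (SE 0.28, adjusted p = 0.00139) and was lower in Glis3-Pax8Cre(LID) than among WT(LID) mice by -1.43 (SE 0.28, adjusted p = 0.00118). The 5 endothelial markers also rose in WT mice on LID, and 4 of them were lower in Glis3-Pax8Cre(LID) than among WT(LID) mice. Their part in the changes of Ccnd1 and Etv4 was not tested.

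Egr1, an immediate-early gene, went the other way. It was at 17.9 to 38.5 CPM among WT(ND) mice, 9.36 to 37.3 CPM among Glis3-Pax8Cre(ND) mice, 10.2 to 12.7 CPM among WT(LID) mice and 27.3 to 55.3 CPM among Glis3-Pax8Cre(LID) mice. LID lowered it in WT mice by -1.14 (SE 0.37, adjusted p = 0.0217). Fed LID, Glis3-Pax8Cre mice had more than WT mice by 1.64 (SE 0.37, adjusted p = 0.00403), with an interaction of 1.94 (SE 0.52, adjusted p = 0.0250). Phlda1, another gene that growth factors induce, had an interaction of 1.15 (SE 0.20, adjusted p = 0.00162), with means of 52.2, 30.7, 43.9 and 57.4 CPM in the group order given for Egr1.

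**Figure D5:**
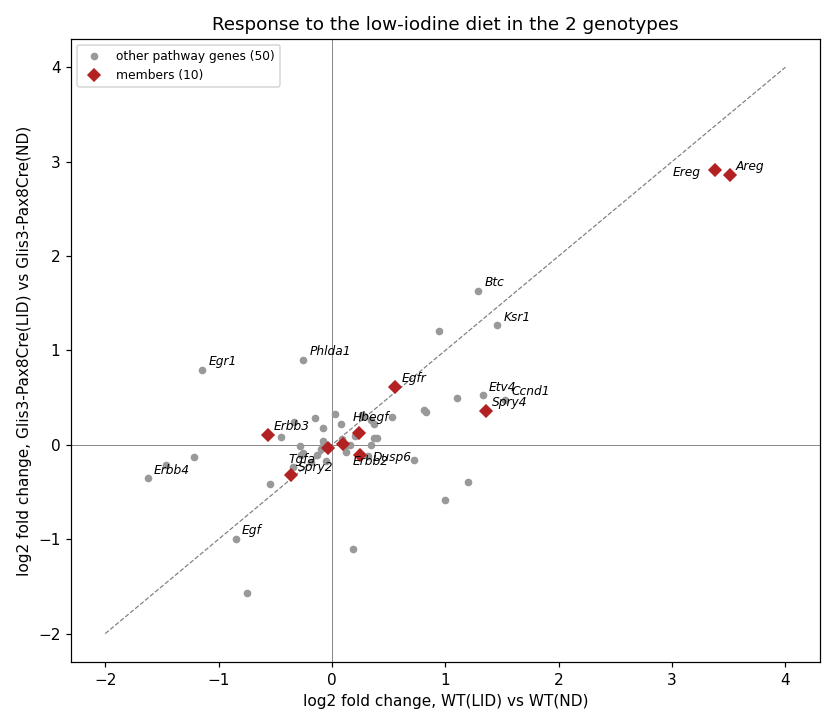
Log2 fold change on the low-iodine diet in WT mice (x) and in Glis3-Pax8Cre mice (y) for the 10 members (diamonds) and the 50 other tested pathway genes (circles); the dashed line marks equal responses, and the axes are linear in log2 units. Areg and Ereg lie at the upper right (3.51 and 3.38 in WT, 2.86 and 2.91 in Glis3-Pax8Cre), Ccnd1 and Spry4 lie under the line and Erbb4, Egr1 and Phlda1 above it.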

How the data were processed

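RNA was measured in thyroid glands of 16 female mice by paired-end RNA-Seq. The authors mapped read pairs to mm10 with STAR v2.5 and counted them per RefSeq gene with featureCounts v1.5.0-p1. The deposited values are raw counts, not normalized, and were used as deposited. The counting is given as unstranded, so reads of overlapping genes on opposite strands cannot be told apart. Library totals ran from 13892352 to 461077969 counted pairs, and a count of 0 allows up to 3 counts, 0.00651 to 0.216 CPM, for counting error alone.

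Groups were taken from the sample titles. Genes that passed filterByExpr (16630) were fitted over all 16 mice by group with TMM scaling and the robust quasi-likelihood test of edgeR 4.0.16 (R 4.3.3), with Benjamini-Hochberg adjustment. Intervals are 95%. CPM were computed on TMM-scaled library sizes. Nothing in the sources used here says whether the mice were littermates or handled apart, and the p-values measure the spread between these mice. The instrument of each library (NextSeq or NovaSeq) is not given in the sources used here.

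The 10 members and the gene lists were chosen with earlier results of these data known. Named were all members, pathway genes called with an absolute log2 fold change over 1 and a mean of at least 1 CPM (at most 6 per comparison), and the 3 genes most like Areg, Egfr and Dusp6. Alternatives were DESeq2 1.42.0, other scalings and filters, a stricter threshold, the 8 mice of a comparison alone, each mouse left out, a replicate block, and, added after seeing the data, the fit without 3 libraries with over 200 CPM of thymocyte markers. Same-numbered samples deviated together in Glis3-Pax8Cre(LID) and Glis3-Pax8Cre(ND) (correlations 0.25 to 0.66 across genes, a hint from the data) and not in the other comparisons. No 2 libraries of a group were duplicates (24 pairs, chi-squared per degree of freedom at least 34.5). Promoters came from RefSeq (GRCm38.p6), and motifs were searched on both strands. Figures were drawn with matplotlib 3.10.9. Some marker genes that were counted are not reported here.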

Additional observations from a re-analysis of the deposited data

Results flagged for a closer look

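In 5 of the 40 sets of 4 mice, 10 genes in 4 groups, 1 mouse lay far from the other 3 of its group by Dixon's test, which chance does in about 1 of 20 sets. Ereg was 2.06 CPM in WT(LID) replicate 1, against 3.99 to 4.36 CPM in the other 3. Tgfa was 15.8 CPM in Glis3-Pax8Cre(ND) replicate 4, against 23.2 to 24.7 CPM, and this library had the highest sum of thymocyte markers, 2632 CPM. Erbb3 was 71.9 CPM in WT(ND) replicate 2, against 88.5 to 91.6 CPM. Erbb3 was 47.9 CPM in Glis3-Pax8Cre(LID) replicate 2, against 88.6 to 96.0 CPM, and this library had the lowest share of Tg, 7.87%. Spry2 was 17.6 CPM in WT(ND) replicate 4, against 11.5 to 12.3 CPM, and this library was the deepest, at 461077969 counted pairs.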

How the results depend on the processing

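Over the 50 results for a member in a comparison, 1275 alternative values were computed, and 1162 kept their direction and their side of the threshold; 57 turned in sign, 36 lost and 20 gained the call. No called result turned in sign. Members called in the interaction numbered 1 with DESeq2 and 1 with at least 10 counts in every mouse, a filter that removes Ereg, against 0. With only the 8 mice of the comparison, Glis3-Pax8Cre(ND) against WT(ND) had 2 members and 5 pathway genes called, against 5 and 12, and LID against ND in Glis3-Pax8Cre mice 6 pathway genes, against 10. Under the stricter bar of an adjusted p below 0.01 with over 2-fold change, the members called were 3 in WT mice on LID and 0 and 0 between genotypes on ND and LID, and the pathway genes called were 8, 2, 0, 4 and 2 in the 5 comparisons in the order of the report. Fewer samples or a higher bar were built into these last alternatives; elsewhere the cause was not tested. The replicate block over 16 mice ended both Egfr calls (log2 fold changes 0.54 in WT and 0.62 in Glis3-Pax8Cre mice); within the 8 ND mice it left 1 member and 1 pathway gene called. Outside Glis3-Pax8Cre LID against ND the numbers did not pair the mice (correlations from -0.53 to 0.12).

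Library size alone moved the median of all genes by -0.16, -0.13, 0.12 and 0.15 in the 4 comparisons of groups. It turned the LID difference of Erbb2 to -0.056 in WT and, in Glis3-Pax8Cre mice, those of Hbegf to -0.0051, Erbb2 to -0.11 and Erbb3 to -0.021. At least 10 counts in every mouse turned Erbb2 there to -0.0024, and leaving out the libraries rich in thymocyte transcripts turned Erbb2 to -0.16 and Erbb3 to -0.10. The Tgfa interaction, 0.0039, was -0.0081 with DESeq2, -0.0092 with RLE scaling, -0.0075 without Tg, -0.0059 without a filter, -0.0096 with at least 10 counts and -0.10 without those libraries.

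With each mouse left out in turn, members called ranged from 3 to 5 between genotypes on ND and from 0 to 2 in the interaction, the 2 being Spry4 and Erbb3 without Glis3-Pax8Cre(LID) replicate 2. Values that turned in sign, none of them called, ranged as follows. On LID against ND, Tgfa ranged from -0.17 to 0.055 in WT and from -0.17 to 0.040 in Glis3-Pax8Cre mice, and in the latter Erbb2 from -0.13 to 0.095 and Erbb3 from -0.014 to 0.29. Between genotypes, Egfr ranged from -0.072 to 0.20 on ND, and on LID Ereg from -0.11 to 0.22 and Dusp6 from -0.012 to 0.12. In the interaction, Hbegf ranged from -0.23 to 0.0047, Tgfa from -0.14 to 0.12, Egfr from -0.068 to 0.23 and Spry2 from -0.14 to 0.18. Depth limits Ereg most, at 4 counts in the shallowest library.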
